A study of Petunia x hybrida with 9 samples.

Results

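Cellulose synthases and structural wall proteins of the petunia corolla were taken as the loci whose closest tomato protein has a description containing "cellulose synthase", "endoglucanase", "fasciclin", "arabinogalactan", "extensin" or "COBRA". The rule reads only these descriptions and no expression value. It found 195 of 94534 loci, which came from 98 assembled genes and matched 65 tomato proteins. Identity to the tomato protein had a median of 81.1% over the members and ranged from 29.6% to 98.7%, so every name below is that of the closest tomato protein and not of a petunia gene. Of the 195 loci, 64 were described as cellulose synthases, 38 as cellulose synthase-like proteins, 10 as endoglucanases, 25 as COBRA proteins, 30 as fasciclin-like proteins, 13 as other arabinogalactan proteins and 15 as extensins. Loci of 1 assembled gene can share sequence and fragments, so they are not independent measurements.

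RNA from corollas, the ring of petals, was sequenced for 3 genotypes of Petunia hybrida cv. Mitchell with 3 libraries each. The genotypes were wild type and the lines A4 and A9, both labelled as overexpressors of PhADT, an arogenate dehydratase of phenylalanine synthesis. All 9 samples, also those of wild type, carry the mutation-site label R353A. All plants stood in a greenhouse lit from 6 AM to 9 PM, and each sample pooled 8 or more corollas cut at 20 h, on day 2 post-anthesis. The promoter of the transgene, the number of transformation events behind a line and the separateness of the plants behind the replicates are not stated, so p-values measure no more than the spread of these libraries, part of which may be technical.

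Cellulose is made at the plasma membrane by complexes of cellulose synthases, which add glucose from UDP-glucose to growing chains and move along cortical microtubules. COBRA proteins, known from Arabidopsis, are attached to the outer face of the membrane by a lipid anchor and are needed for oriented or crystalline cellulose. Fasciclin-like and other arabinogalactan proteins are heavily glycosylated proteins of the cell surface, extensins are hydroxyproline-rich proteins that peroxidases can cross-link into the wall, and plant endoglucanases cut beta-glucans of the wall. Cellulose synthase-like proteins of the C family make the glucan backbone of xyloglucan. Petal cells lay down cellulose while the corolla expands, and part of this machinery, including some synthases and COBRA-like and fasciclin-like proteins, serves the secondary walls of vessels.

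Expression was given in FPKM, which divides the fragments of a locus by its length and by the fragments of the library. Changes are differences of means of log2(FPKM + 1), with a standard error (SE), tested with limma over the 53284 loci that averaged 1 FPKM or more, and a locus was called when its Benjamini-Hochberg adjusted p was under 0.05. On that scale the change of a low locus is understated. Libraries held an estimated 30600000 to 43100000 fragments, and 1 FPKM at a tested locus of median length stood for 44.3 to 63.1 fragments. XLOC_018765, described as a prephenate dehydratase and chosen after its values were seen, was at 108, 80.8 and 97 FPKM in A9, at 0.0389, 0 and 0 FPKM in wild type, and at 0.0291, 0 and 0.0579 FPKM in A4-labelled libraries. Of 15 tested dehydratase loci, 5 rose in A9 and 0 in the A4-labelled libraries, so the overexpressor label is not matched by the RNA there, and that wording is kept throughout. Summed over these 15 loci, A9 was not raised, at 3181, 3834 and 3375 FPKM beside 2911, 4038 and 3442 in wild type. The A4-labelled libraries were lower, at 2117, 2089 and 2404 FPKM. No description matched the petal identity markers, so they could not check the tissue.

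Of the 195 members, 111 loci passed the filter, from 54 assembled genes and 39 tomato proteins, and 84 did not. They were 44 cellulose synthases, 11 cellulose synthase-like proteins, 7 endoglucanases, 9 COBRA proteins, 20 fasciclin-like proteins, 9 arabinogalactan proteins and 11 extensins. The loci just inside the filter averaged 1.01, 1.03 and 1.04 FPKM and those just outside 0.992, 0.978 and 0.938 FPKM. The 84 low loci had a median of 0.307 FPKM. Among them, 35 were above every wild-type library in all 3 A4-labelled libraries and 34 in all 3 of A9, while 25.1% and 18% of all loci below the filter were so. The highest tested members were an extensin at a mean of 199 FPKM (XLOC_080153), a fasciclin-like protein at 114 FPKM (XLOC_023787) and an arabinogalactan protein at 104 FPKM (XLOC_020177).

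Against wild type, the A4-labelled libraries were higher at endoglucanases and at selected members of most other roles, and 12 of their 24 lower loci were cellulose synthases and 5 arabinogalactan proteins. Of the 111 tested members, 46 were called there, which is 41.4% where 32.1% of all tested loci were called. They were 22 higher and 24 lower members, or 19.8% and 21.6%, beside 15.6% and 16.6% of all tested loci. In A9, 39 members were called, which is 35.1% where 19.2% of all loci were called. They were 33 higher and 6 lower members, or 29.7% and 5.41%, beside 8.98% and 10.3% of all loci. The median change was -0.06 in the A4-labelled libraries and 0.41 in A9, with -0.04 and -0.01 over all tested loci. Both comparisons use the same wild-type libraries. Of the 22 rises in the A4-labelled libraries, 9 were at loci whose other 6 libraries averaged under 1 FPKM, as were 6 of the 13 loci higher there than in A9, so those passed the filter only through the group where they were high. This held for 0 of the 33 rises in A9, for 1 of the 24 falls and 1 of the 6, and for 0 of the 35 loci lower in the A4-labelled libraries than in A9. A locus low in wild type can also have passed through both lines together, which these counts do not show.

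Set against each other, the lines had the largest median differences by role at endoglucanases, 2.22 higher in the A4-labelled libraries, and at COBRA proteins, with -1.46 there. Of the 111 members, 13 were higher and 35 lower in the A4-labelled libraries than in A9, which is 43.2% called where 18.0% of all loci were called. The higher members made up 11.7% and the lower ones 31.5%, beside 9.91% and 8.13% of all loci. The median difference was -0.45, with -0.02 over all loci. Of the 35 lower members, 19 were among the 44 cellulose synthases, whose 43.2% called equals that of all members and whose median difference was -0.27, 6 were COBRA proteins and 6 were fasciclin-like proteins. Of the 13 higher members, 6 were endoglucanases.

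**Figure D1:**
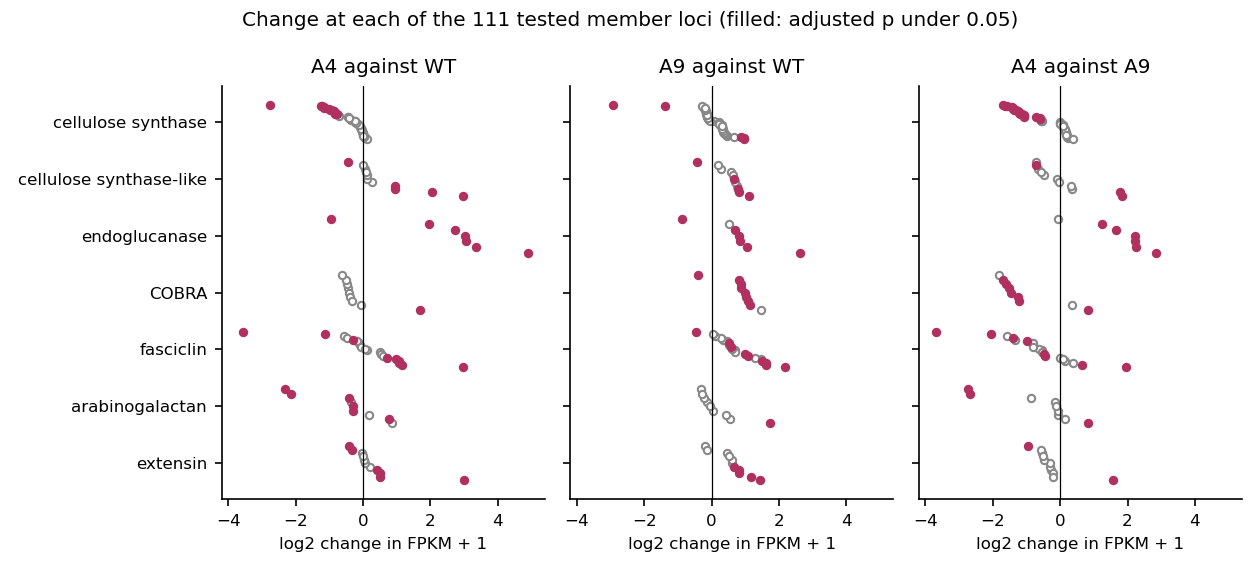
Change at each of the 111 tested member loci on the log2(FPKM + 1) scale (horizontal axes) by role (vertical axis), for the A4-labelled libraries against wild type, A9 against wild type and A4 against A9; filled points had an adjusted p under 0.05 and the vertical spread within a role only separates points. Of the 7 endoglucanases, 6 lie to the right in the first panel and in the third, and 19 of 44 cellulose synthases are filled to the left in the third.

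These counts changed when single libraries were left out. Each such fit has fewer samples for every locus, and its calls over all loci are not given, so the counts below describe stability only. A call is described as stable here when it was kept with each library left out in turn and with the other pseudocount, filters, scalings, variance prior, sample sets and replicate block tried, wherever the locus was still tested. Of the rises in the A4-labelled libraries, 15 of 22 were stable, but of the falls only 4 of 24 were; in A9 these were 14 of 33 rises and 5 of 6 falls, and between the lines 12 of 13 higher and 12 of 35 lower. The falls in the A4-labelled libraries numbered 10 or 5 when replicate 1 or 3 of wild type was left out, and 8 when either A4 replicate 2 or A4 replicate 3 was. Calls of both directions then numbered 27, 22, 29 and 24. Among the same calls, 18 of the 22 rises and 12 of the 24 falls were kept without the 3 libraries numbered 2, a setting chosen after the data were seen and not part of that definition; the numbers were 22 of 33 and 3 of 6 in A9, and 9 of 13 and 26 of 35 between the lines. In A9 the rises numbered 15 without A9 replicate 3, and 16 or 19 when replicate 1 or 2 of wild type was left out, and all calls 20, 22 and 24. Between the lines, the lower members numbered 13 without A4 replicate 2, 13 without A4 replicate 3, 14 without A9 replicate 1 and 15 without A9 replicate 3, and all calls 25, 27, 28 and 30.

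Endoglucanases had the largest median change of any role in the A4-labelled libraries. All 7 tested loci are described as endoglucanase 1, a glycosyl hydrolase of the wall, and they match 3 tomato proteins. In the A4-labelled libraries, 6 rose and 1 fell, and in A9, 5 rose and 1 fell. The same 6 loci were higher in the A4-labelled libraries than in A9. The median change was 3.03 in the A4-labelled libraries and 0.80 in A9. Of the 6 rises in the A4-labelled libraries, 4 were at loci that passed the filter only through those libraries, and of the 5 in A9, 2 were stable. All 6 rises in the A4-labelled libraries were stable, against wild type and against A9, although without the 3 libraries numbered 2 XLOC_034064 and XLOC_034065 missed the threshold against A9 (adjusted p = 0.0502 and 0.0507).

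XLOC_034066, the most abundant of them, was nearly silent in wild type at 0.0195, 0.203 and 0 FPKM, which corresponds to about 1, 11 and 0 fragments. It stood at 28.4, 28.1 and 36.7 FPKM in the A4-labelled libraries and at 3.58, 4.62 and 10.5 FPKM in A9. The 3 groups did not overlap, with wild type lowest, A9 between and A4 highest. The change was 4.89 (SE 0.30, limma adjusted p = 6.76e-06) in the A4-labelled libraries and 2.64 (SE 0.30, adjusted p = 0.000437) in A9, and the difference between the lines was 2.26 (SE 0.30, adjusted p = 0.00156). Bulk RNA cannot tell a change in the number of cells of a type from a change of RNA per cell, here or at any locus below.

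The other tomato protein with rising loci showed the same order. XLOC_054575 measured 0.167, 0.344 and 0.212 FPKM in wild type, 7.77, 8.87 and 11.5 in the A4-labelled libraries, and 1.34, 1.03 and 1.24 FPKM in A9. Again no libraries of different groups overlapped, and the changes were 3.05 (SE 0.13, limma adjusted p = 7.41e-07) and 0.83 (SE 0.13, adjusted p = 0.00292). This locus passed the filter only through the A4-labelled libraries. XLOC_054577, which matches the end of the protein from residue 453, rose by 3.03 in the A4-labelled libraries (SE 0.23, adjusted p = 2.83e-05). Its rise in A9 of 0.80 (SE 0.23, adjusted p = 0.0424) was weaker, with an adjusted p of 0.133, 0.0964, 0.0921, 0.0777 and 0.113 without wild-type replicates 1 and 2 and A9 replicates 1, 2 and 3. Summed over its 3 loci, the protein was at 1.25 ± 0.486 FPKM in wild type, 34.6 ± 9.91 in the A4-labelled libraries and 4.07 ± 0.382 in A9 (SD, n = 3).

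One endoglucanase went the other way in both lines. XLOC_012265 measured 8.62, 10.4 and 10.8 FPKM in wild type, 4.93, 4.54 and 4.58 in the A4-labelled libraries, and 5.74, 3.91 and 5.12 FPKM in A9. All wild-type libraries lay above all others, while the lines overlapped each other. It fell by 0.94 (SE 0.13, limma adjusted p = 0.000776) and by 0.89 (SE 0.13, adjusted p = 0.00176), and both calls were stable. This locus was the leading endoglucanase of wild type, and in the A4-labelled libraries it was below XLOC_034066, XLOC_054575 and XLOC_054577.

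**Figure D2:**
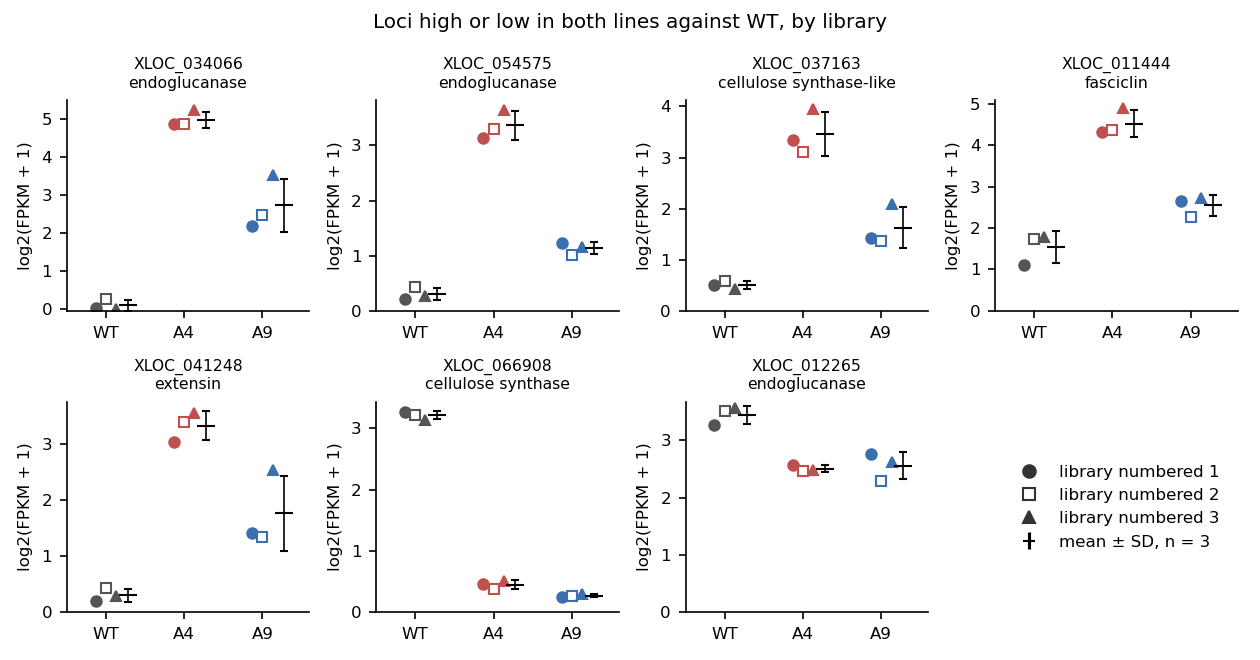
log2(FPKM + 1) in each library (vertical axes) for 7 loci that were called against wild type in the same direction in both lines, by group; symbols give the library number and crosses the mean ± SD (n = 3). The first 5 loci are lowest in wild type and highest in the A4-labelled libraries, and XLOC_066908 and XLOC_012265 are highest in wild type.

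Cellulose synthase loci above the filter were called lower or not at all in the A4-labelled libraries, and in A9 few were called. Of 44 tested loci, 0 rose and 12 fell in the A4-labelled libraries, with a median change of -0.23, and 3 rose and 2 fell in A9, with a median of 0.14. The falls made up 27.3%, where 16.6% of all tested loci fell. Of the 12, 2 were stable, XLOC_066908 and XLOC_066911, both matching Solyc03g005450, to which alignments reached residue 739 at most. In A9, 0 of the 3 rises and both falls, at the same 2 loci, were stable. Between the lines, 19 loci were lower in the A4-labelled libraries, 5 of them stable, and 0 were higher. At an unadjusted p under 0.05, limma gave 0 rises in the A4-labelled libraries and 1 higher locus there than in A9. Summed over all 64 loci, their FPKM was 367, 289 and 399 in wild type, 301, 192 and 227 in the A4-labelled libraries, and 501, 355 and 486 in A9. In each group the library numbered 2 was the lowest. The synthases named here are so by description only and are not assigned to primary or secondary wall classes, since the tomato descriptions give none. Alignments reached residue 1090 of Solyc04g071650, but only residue 739 of the protein of XLOC_066908 and 693 of Solyc12g015770. The last of these proteins holds 20 of the 44 tested loci. Whether all are catalytic subunits of cellulose synthase was not tested.

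The synthase loci that fell in both lines were XLOC_066908 and XLOC_066911, from a single assembled gene. XLOC_066908 measured 8.64, 8.32 and 7.78 FPKM in wild type, 0.378, 0.300 and 0.430 in the A4-labelled libraries, and 0.187, 0.202 and 0.231 FPKM in A9. All wild-type libraries stood far above the rest, with replicates close to each other. It fell by 2.75 (SE 0.07, limma adjusted p = 3.58e-08) in the A4-labelled libraries and by 2.94 (SE 0.07, adjusted p = 1.35e-08) in A9, the lowest adjusted p-values of the cellulose synthases. This locus passed the filter only through wild type, where it was high. XLOC_066911, named outside the rule for named loci, after its values were seen, fell by 1.01 (adjusted p = 0.00344) and 1.38 (adjusted p = 0.00112). These calls were stable. The locus aligned over residues 1 to 739 at 74.6% identity, and loci of this gene below the filter included XLOC_066909 at a mean of 0.978 FPKM.

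Other synthases separated the lines from each other more than from wild type. XLOC_043493 measured 23, 12.5 and 26.2 FPKM in wild type, 12.4, 6.52 and 6 in the A4-labelled libraries, and 34.6, 18.5 and 30.3 FPKM in A9. The A4-labelled libraries all lay below the others, and those of A9 overlapped wild type. It fell by 1.21 in the A4-labelled libraries (SE 0.35, limma adjusted p = 0.0270) and did not pass in A9 (change 0.44, adjusted p = 0.424). The call against wild type was lost without wild-type replicate 1 (adjusted p = 0.0837), wild-type replicate 3 (0.0926), A4 replicate 2 (0.0818) or A4 replicate 3 (0.0918). The difference of -1.65 between the lines (SE 0.35, adjusted p = 0.0138) was lost without A4 replicate 3 (adjusted p = 0.0544). XLOC_043492 of the same assembled gene differed by -1.70 between the lines (SE 0.34, adjusted p = 0.0111) and that call was stable.

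XLOC_056537, aligned over residues 1 to 1090 of its tomato protein, was at 7.88, 6.90 and 10 FPKM in wild type, 8.59, 4.21 and 5 in the A4-labelled libraries, and 18.3, 15.7 and 16.8 FPKM in A9. All libraries of A9 lay above all others, and wild type and A4 overlapped. The rise in A9 was 0.96 (SE 0.22, limma adjusted p = 0.0157), and the adjusted p was 0.0521 without wild-type replicate 1 and 0.0543 without wild-type replicate 2. The difference between the lines was -1.42 (SE 0.22, adjusted p = 0.00332) and was stable. The A4-labelled libraries did not pass against wild type (change -0.46, adjusted p = 0.141), although without A4 replicate 1 the adjusted p was 0.0105.

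The most abundant synthase by level per length was XLOC_043511, at 27.5, 23.9 and 29.9 FPKM in wild type, 26.8, 19.2 and 23.5 in the A4-labelled libraries and 40.6, 27.6 and 38.3 FPKM in A9. Neither line passed against wild type (adjusted p = 0.350 and 0.173), and with the replicate number as a block A9 did (adjusted p = 0.0321). It differed by -0.59 between the lines (SE 0.17, limma adjusted p = 0.0444), and that call was lost without any one of wild-type replicate 1 (0.0653), 2 (0.0529) or 3 (0.0604), A4 replicate 2 (0.138) or 3 (0.102), or A9 replicate 1 (0.132) or 3 (0.125). XLOC_043506, from the same assembled gene, fell by 0.86 in the A4-labelled libraries (SE 0.25, adjusted p = 0.0295), a call lost without wild-type replicate 1 (0.0810), wild-type replicate 3 (0.0983), A4 replicate 2 (0.0946) or A4 replicate 3 (0.0798). It differed by -1.23 between the lines (SE 0.25, adjusted p = 0.0123), which was stable. XLOC_041217, also among the highest, is 223 bases long, shorter than the 274 to 290 bases the depth estimate subtracts, so its FPKM is not reliable.

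Many of the tested synthase loci were not called. An assembled gene matching the tomato protein Solyc12g015770 held 20 of the 44 loci, and limma called 0 of these in any comparison, with 0, 1 and 0 at an unadjusted p under 0.05 in the A4-labelled libraries and in A9 against wild type and between the lines. Their changes ranged from -0.14 to 0.13 in the A4-labelled libraries and from -0.28 to 0.07 in A9. Summed over all 25 of its loci, the protein stood at 39.1 ± 2.50 FPKM in wild type, 37.9 ± 1.59 in the A4-labelled libraries and 33.5 ± 7.40 in A9 (SD, n = 3). Summed by tomato protein, which takes in loci below the filter, 2 of 9 synthases rose and 3 fell in the A4-labelled libraries, and 2 rose and 1 fell in A9. The protein of XLOC_066908 fell in both lines. Those of XLOC_043493 and of Solyc11g005560 fell in the A4-labelled libraries, by 1.29 (SE 0.36, limma adjusted p = 0.0193) and by 1.21 (SE 0.38, adjusted p = 0.0341). Solyc07g005840, cellulose synthase 3, summed to 0.292, 0.271 and 0.213 FPKM in wild type, 1.76, 1.49 and 1.45 in the A4-labelled libraries, and 1.30, 1.38 and 1.09 FPKM in A9. All libraries of both lines lay above wild type, with rises of 1.03 (SE 0.10, adjusted p = 8.86e-05) and 0.84 (SE 0.10, adjusted p = 0.000619). That sum passed the filter only through the lines, where it was high. Solyc09g072820 also rose, from 1.70 ± 0.202 FPKM in wild type to 3.63 ± 0.911 and 3.21 ± 0.626 FPKM (SD, n = 3), by 0.76 (SE 0.16, adjusted p = 0.00577) and 0.63 (SE 0.16, adjusted p = 0.0212). None of the loci of these last proteins passed the filter singly.

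**Figure D3:**
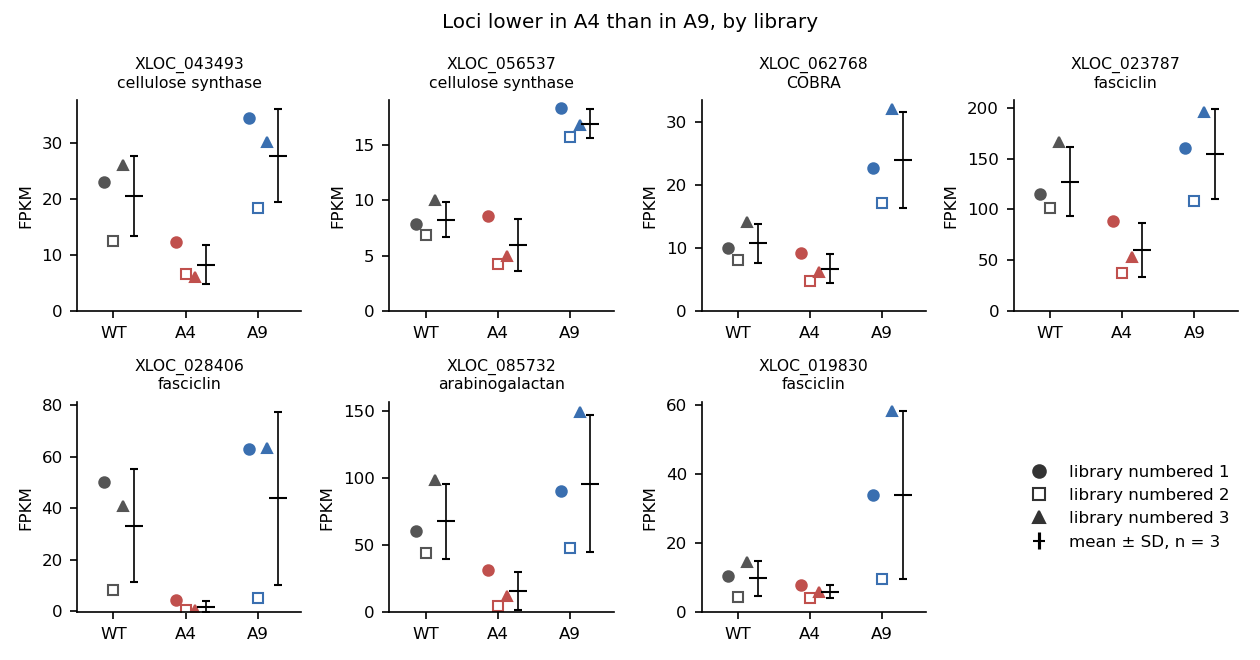
FPKM in each library (vertical axes) for 7 loci that were called lower in the A4-labelled libraries than in A9, by group; symbols give the library number and crosses the mean ± SD (n = 3). The open squares, libraries numbered 2, are the lowest of wild type and of A9 in all 7 panels and of A4 in all but XLOC_043493.

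Cellulose synthase-like proteins were called at 45.5% of their loci in either line, where 32.1% and 19.2% of all loci were called in the A4-labelled libraries and in A9. Of 11 tested loci, 4 rose and 1 fell in the A4-labelled libraries, 4 rose and 1 fell in A9, and between the lines 2 were higher and 1 lower in A4-labelled libraries. Stable were 2 of the 4 rises in the A4-labelled libraries, 1 of the 4 in A9 and the fall in each. XLOC_037163, described as cellulose synthase-like C6, measured 0.413, 0.509 and 0.348 FPKM in wild type, 9.21, 7.60 and 14.4 in the A4-labelled libraries, and 1.68, 1.58 and 3.27 FPKM in A9. The groups did not overlap, in the order wild type, A9, A4. It rose by 2.96 (SE 0.24, limma adjusted p = 3.92e-05) and by 1.12 (SE 0.24, adjusted p = 0.0127), and all 3 of its comparisons were stable.

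XLOC_049547, a C1-2 glycosyltransferase by its description, rose in the A4-labelled libraries, and it passed the filter only through them. It was at 0.352, 0.374 and 0.327 FPKM in wild type, 3.67, 4.64 and 5.80 in the A4-labelled libraries, and 0.540, 0.558 and 0.884 FPKM in A9. The rise was 2.06 (SE 0.14, limma adjusted p = 1.20e-05), the change in A9 was 0.29 (adjusted p = 0.173, and 0.0460 with a pseudocount of 0.1), and the difference between the lines was 1.77 (SE 0.14, adjusted p = 7.80e-05). XLOC_059820, the highest locus of the role, fell from 33 ± 2.41 FPKM to 23.8 ± 0.973 and 24.4 ± 1.53 FPKM (SD, n = 3), by 0.46 (adjusted p = 0.00416) and 0.42 (adjusted p = 0.0103). The latter adjusted p was 0.0645 without the 3 libraries numbered 2. Only residues 412 to 477 of the tomato protein aligned to this locus of 3907 bases, so its name rests on a short stretch. XLOC_048498, near full length over residues 7 to 1135, was at 1.94 FPKM in wild type and in the A4-labelled libraries and at 3.87 FPKM in A9, and with the replicate block A9 passed (adjusted p = 0.0534 without it and 0.0220 with it).

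COBRA loci called in A9 were mostly higher there, and most of them came from 1 assembled gene. Of 9 tested loci, 7 rose and 1 fell in A9, with a median change of 1.00, and in the A4-labelled libraries 1 rose and 0 fell, also at an unadjusted p under 0.05 by limma, with a median of -0.43. The rises in A9 made up 77.8%, where 8.98% of all loci rose, but came from 2 assembled genes, and 1 of the 7 was stable. Summed by tomato protein, 2 of 6 rose and 0 fell in A9. Between the lines, 6 were lower and 1 higher in the A4-labelled libraries. The 6 lower loci, all described as COBRA-like protein 4, belong to 1 assembled gene, and all 6 of these differences were stable. Without the 3 libraries numbered 2, that of XLOC_062766 missed the threshold (adjusted p = 0.052).

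XLOC_062768, the most abundant of the 6, measured 9.96, 8.11 and 14.1 FPKM in wild type, 9.26, 4.77 and 6.16 in the A4-labelled libraries, and 22.7, 17.1 and 32.1 FPKM in A9. All libraries of A9 lay above all others, and wild type and A4 overlapped. Between the lines it differed by -1.69 (SE 0.28, limma adjusted p = 0.00522). The rise of 1.08 in A9 (SE 0.28, adjusted p = 0.0293) was lost without wild-type replicate 1 (0.0844), wild-type replicate 2 (0.0912), A9 replicate 1 (0.0652) or A9 replicate 3 (0.0920). The A4-labelled libraries did not pass (change -0.61, adjusted p = 0.133). Summed over its 6 loci, the tomato protein stood at 30.7 ± 8.13 FPKM in wild type, 20.1 ± 7.60 in the A4-labelled libraries and 70.1 ± 23.4 in A9 (SD, n = 3).

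XLOC_000113, another COBRA-like locus, had a tight pattern at low level. It measured 0.154, 0.187 and 0.11 FPKM in wild type, 2.69, 2.62 and 2.95 in the A4-labelled libraries, and 1.11, 1.15 and 1.10 FPKM in A9, from 5 to 9 fragments in a wild-type library. No libraries of different groups overlapped. It rose by 1.70 (SE 0.07, limma adjusted p = 4.22e-07) and by 0.88 (SE 0.07, adjusted p = 2.91e-05), both stable. This locus passed the filter only through the A4-labelled libraries, where it was highest. XLOC_086299 was spread widely in A9, at 4.04, 2.50 and 15.5 FPKM, against 1.21, 0.670 and 2.67 FPKM in wild type. It did not pass there (change 1.47, adjusted p = 0.0964), but did with the replicate block (adjusted p = 0.0378) or without A9 replicate 2 (0.0474). XLOC_026859, described as Ch-cobra, fell by 0.39 in A9 (SE 0.10, adjusted p = 0.0306), from 2.21 to 1.45 FPKM, a call lost without wild-type replicate 2 (0.0805), wild-type replicate 3 (0.0976), A9 replicate 2 (0.0817) or A9 replicate 3 (0.101).

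Fasciclin-like loci were called in both directions in the A4-labelled libraries and mostly higher in A9. Of 20 tested loci, 6 rose and 3 fell in the A4-labelled libraries, with a median change of 0.09, and 8 rose and 1 fell in A9, with a median of 0.66. The rises made up 30% and 40%, where 15.6% and 8.98% of all loci rose, and the falls 15% and 5%, where 16.6% and 10.3% fell. Stable were 4 of the 6 rises and 0 of the 3 falls in the A4-labelled libraries, and 4 of the 8 rises and the fall in A9. Between the lines, 2 were higher and 6 lower in the A4-labelled libraries, and 0 of the 6 were stable. XLOC_011444, fasciclin-like arabinogalactan protein 2, measured 1.15, 2.33 and 2.45 FPKM in wild type, 18.8, 19.5 and 28.7 in the A4-labelled libraries, and 5.24, 3.77 and 5.66 FPKM in A9. The groups did not overlap. It rose by 2.98 in the A4-labelled libraries (SE 0.23, limma adjusted p = 2.82e-05) and by 1.00 in A9 (SE 0.23, adjusted p = 0.0164), and the latter had an adjusted p of 0.0589 without A9 replicate 3.

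The largest fall of the members in the A4-labelled libraries was that of XLOC_028406, fasciclin-like arabinogalactan protein 4. It measured 50.1, 8.44 and 41 FPKM in wild type, 4.35, 0.335 and 0.679 in the A4-labelled libraries, and 63.1, 5.18 and 63.5 FPKM in A9. The A4-labelled libraries lay below all others, and replicate 2 stood far below its fellows in wild type and in A9. The fall was 3.57 (SE 1.01, limma adjusted p = 0.0262), lost without wild-type replicate 1 (0.0857), wild-type replicate 3 (0.0831), A4 replicate 2 (0.0805) or A4 replicate 3 (0.0804). In A9 the change was 0.11 (SE 1.01, adjusted p = 0.956). The difference of -3.69 between the lines (SE 1.01, adjusted p = 0.0374) was lost without wild-type replicate 3 (0.0541), A4 replicate 2 (0.114), A4 replicate 3 (0.111), A9 replicate 1 (0.114) or A9 replicate 3 (0.113).

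Loci described as fasciclin-like arabinogalactan protein 14 did not move as one. The most abundant, XLOC_023787, was at 115, 101 and 166 FPKM in wild type, 88.9, 37.3 and 53 in the A4-labelled libraries, and 160.4, 108 and 196 FPKM in A9. It fell by 1.14 in the A4-labelled libraries (SE 0.33, limma adjusted p = 0.0303), and the adjusted p was 0.0633, 0.103, 0.0917 and 0.0840 without wild-type replicates 1 and 3 and A4 replicates 2 and 3. It was also lower there than in A9, by -1.41 (adjusted p = 0.0220), lost without A4 replicate 2 (0.0665), A4 replicate 3 (0.0708), A9 replicate 1 (0.0660) or A9 replicate 3 (0.0714). XLOC_023782, from another assembled gene, rose instead, from 9.52, 5.71 and 8.80 FPKM in wild type to 20, 12.8 and 21.6 in the A4-labelled libraries and 30.9, 16.3 and 36.6 FPKM in A9. Its libraries did not overlap between wild type and either line. The rises were 1.08 (SE 0.31, adjusted p = 0.0283) and 1.63 (SE 0.31, adjusted p = 0.00768); the former was lost without wild-type replicate 2 (0.0913), wild-type replicate 3 (0.0565), A4 replicate 1 (0.0777) or A4 replicate 3 (0.0935). With the replicate block the lines differed (adjusted p = 0.257 without it and 0.0171 with it).

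Among the other fasciclin-like loci, a rise in both lines stood beside wide spreads between libraries. XLOC_063648 rose in both lines, from 0.374, 0.393 and 0.126 FPKM in wild type to 2.08, 2.04 and 1.58 in the A4-labelled libraries and 1.85, 1.42 and 2 FPKM in A9. The lines overlapped each other and not wild type, with changes of 1.16 (SE 0.12, limma adjusted p = 0.000178) and 1.09 (SE 0.12, adjusted p = 0.000428), both stable. Wild type averaged 0.297 FPKM, so this locus passed the filter only through the lines, where it was high. XLOC_019830, fasciclin-like arabinogalactan protein 19, ranged from 9.58 to 58.1 FPKM in A9 and from 4.51 to 14.6 FPKM in wild type, and it did not pass there (adjusted p = 0.123). With the replicate block it did (adjusted p = 0.0179), as it did without A9 replicate 2 (0.0154). The A4-labelled libraries differed from A9 by -2.04 (SE 0.60, adjusted p = 0.0485). That call was lost with a pseudocount of 0.1 (0.0511), with only both lines fitted (0.0718), and without replicate 1 (0.0690) or 3 (0.0594) of wild type, replicate 1 (0.0653), 2 (0.139) or 3 (0.115) of A4, or replicate 1 (0.129) or 3 (0.134) of A9.

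Arabinogalactan proteins outside the fasciclin family had 9 tested loci. In the A4-labelled libraries, 1 rose and 5 fell, and in A9, 1 rose and 0 fell, with 3 lower at an unadjusted p under 0.05 by limma. The falls in the A4-labelled libraries made up 55.6%, where 16.6% of all loci fell, but they came from 2 assembled genes and 0 of the 5 were stable. Summed by tomato protein, 1 of 5 rose and 2 fell there, and 2 rose and 0 fell in A9. XLOC_085732 measured 60.3, 44.5 and 98.7 FPKM in wild type, 31.7, 4.43 and 11.9 in the A4-labelled libraries, and 90.2, 47.8 and 149.6 FPKM in A9. The A4-labelled libraries lay below all others, and those of A9 overlapped wild type. The fall was 2.31 (SE 0.64, limma adjusted p = 0.0240), lost without wild-type replicate 1 (0.0579), wild-type replicate 3 (0.0822), A4 replicate 2 (0.0627) or A4 replicate 3 (0.0654). The match behind its name covers residues 193 to 215 alone, so the name is uncertain. XLOC_085731 of the same assembled gene fell by 2.14 (adjusted p = 0.0189), lost without wild-type replicate 3 (0.0677) or A4 replicate 3 (0.0564), and differed by -2.69 between the lines (SE 0.56, adjusted p = 0.0133), which was stable.

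Against wild type, the other tested arabinogalactan loci were called in 1 line or in none. A protein whose loci were singly below the filter was called in both lines. XLOC_020177, the highest, was at 109, 126 and 113 FPKM in wild type, 91, 93.3 and 100.4 in the A4-labelled libraries and 101, 96 and 102 FPKM in A9. Both lines lay below all wild-type libraries. It fell by 0.29 in the A4-labelled libraries (SE 0.09, limma adjusted p = 0.0308), a call lost after quantile normalization (0.227) and without wild-type replicate 2 (0.0992), wild-type replicate 3 (0.0688), A4 replicate 1 (0.0821) or A4 replicate 2 (0.0828). XLOC_083664, arabinogalactan peptide 20, rose by 0.77 in the A4-labelled libraries (SE 0.19, limma adjusted p = 0.0138). That call was lost without wild-type replicate 1 (0.0504). XLOC_013418, arabinogalactan peptide 16, rose in A9 from 5.68, 8.51 and 11.6 FPKM to 25.3, 21.5 and 48.5 FPKM, a change of 1.73 (SE 0.35, adjusted p = 0.0102), which was stable. In the A4-labelled libraries, at 22.7, 11.4 and 15.8 FPKM, it overlapped wild type (adjusted p = 0.0904), although without A9 replicate 3 the adjusted p was 0.0490. Below the filter, the 3 loci of the arabinogalactan protein Solyc07g053640 were listed at 0 in every wild-type library. Their sum was 4.45, 4.71 and 5.63 FPKM in the A4-labelled libraries and 0.746, 1.27 and 1.64 FPKM in A9, and both lines were called higher on it (limma adjusted p = 8.12e-06 and 0.00123). That sum passed the filter only through the A4-labelled libraries, where it was highest.

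Extensins, by description here extensin-like or pollen Ole e 1 and extensin family proteins, rose where they were called in A9. Whether these are cross-linked wall extensins was not tested. Of 11 tested loci, 5 rose and 0 fell there, all 5 stable although without the 3 libraries numbered 2 XLOC_053096 missed the threshold (adjusted p = 0.0901), and in the A4-labelled libraries, 4 rose and 2 fell, of which 2 and 0 were stable. The rises made up 45.5% in A9, where 8.98% of all loci rose, and 36.4% in the A4-labelled libraries, where 15.6% did. XLOC_041248, described as a pollen Ole e 1 allergen and extensin, was at 0.147, 0.348 and 0.221 FPKM in wild type, 7.17, 9.39 and 10.6 in the A4-labelled libraries, and 1.66, 1.54 and 4.76 FPKM in A9. The groups did not overlap. It rose by 3.01 (SE 0.29, limma adjusted p = 0.000102) and by 1.45 (SE 0.29, adjusted p = 0.00888), and the lines differed by 1.56 (adjusted p = 0.00801). That difference had an adjusted p of 0.0870 without the 3 libraries numbered 2.

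XLOC_040054, a pistil extensin-like protein, was at 41.8, 50.9 and 37 FPKM in wild type, 59.1, 66.1 and 58.6 in the A4-labelled libraries, and 71.5, 81.8 and 76.1 FPKM in A9. The groups did not overlap, here with A9 highest. The rises were 0.50 (SE 0.12, limma adjusted p = 0.0136) and 0.82 (SE 0.12, adjusted p = 0.00221), both stable, and the lines differed only with the replicate block (adjusted p = 0.11 without it and 0.0486 with it). XLOC_080153, a cysteine-rich extensin-like protein and the highest member, was at 126, 215 and 164 FPKM in wild type, 152, 205 and 166 in the A4-labelled libraries, and 244, 226 and 288 FPKM in A9. A9 lay above all others, but did not pass (change 0.61, SE 0.20, adjusted p = 0.0627, and 0.0416 with the replicate block). XLOC_040729, a pollen Ole e 1 and extensin family protein, fell by 0.41 in the A4-labelled libraries (SE 0.11, adjusted p = 0.0203), from 45 to 33.6 FPKM, a call lost without wild-type replicate 2 (0.0676) or A4 replicate 1 (0.0553).

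**Figure D4:**
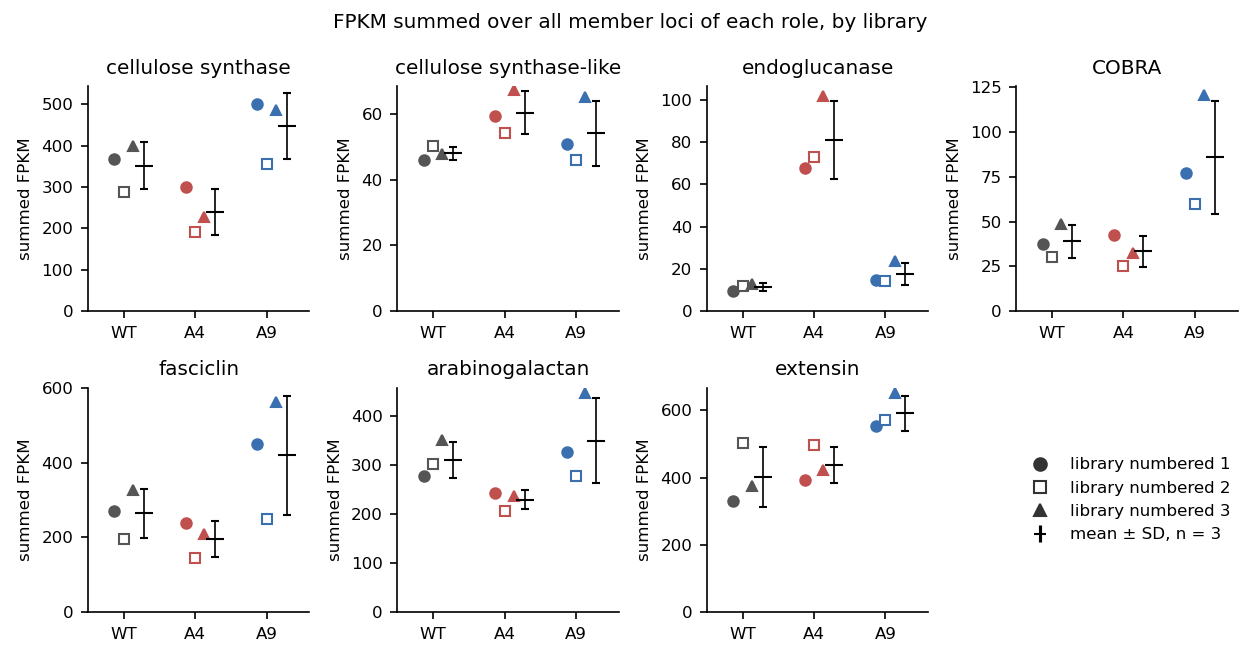
FPKM summed over all member loci of each role in each library (vertical axes), by group; symbols give the library number and crosses the mean ± SD (n = 3). Endoglucanases are highest in the A4-labelled libraries, at 67.8, 73.2 and 102, and COBRA proteins in A9, at 77.3, 59.7 and 121.

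Summed over all 195 members, the level was 1428 ± 117 FPKM in wild type, 1279 ± 78.7 in the A4-labelled libraries and 1966 ± 392 in A9 (SD, n = 3), or 0.174%, 0.170% and 0.247% of all FPKM. By role, the libraries labelled A4 did not overlap wild type for 3 sums. Endoglucanases were higher there, at 81.1 ± 18.6 against 11.4 ± 1.77 FPKM, as were cellulose synthase-like proteins, at 60.5 ± 6.60 against 48.1 ± 2.01 FPKM, while arabinogalactan proteins were lower, at 229 ± 19.8 against 311 ± 37.4 FPKM. The largest part of that drop was Solyc02g092790, the uncertainly named protein of XLOC_085732. It stood at 91.6 ± 36.8 FPKM in wild type and 21.8 ± 19.5 in the A4-labelled libraries, and other proteins of the role moved both ways. In A9, 3 sums lay above all wild-type libraries, which were those of COBRA proteins at 86 ± 31.6 against 38.9 ± 9.43 FPKM, of extensins at 592 ± 51.7 against 402 ± 88.9 FPKM, and of endoglucanases at 17.5 ± 5.17 FPKM. The other role sums overlapped wild type, among them fasciclin-like proteins at 419.8 ± 158 FPKM in A9 and 265 ± 65.7 in wild type. These sums were not tested. Taken singly, 45.9% of tested members and 47.9% of all tested loci did not overlap between the A4-labelled libraries and wild type. For A9 against wild type these shares were 49.5% and 38.3%, and between the lines 60.4% and 36.3%. The number of sums without overlap is therefore not read as a trait of the roles.

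The library numbered 2 of each group stood low at many members. At 42 of the 111 tested members, or 37.8%, the library numbered 2 was the lowest in wild type, in the A4-labelled libraries and in A9 alike, while this held at 7.93% of all tested loci. The share was 77.8% for COBRA proteins, 55% for fasciclin-like proteins and 45.5% for cellulose synthases, and 0% for endoglucanases and extensins. Loci of 1 assembled gene were counted singly here and are not independent. The 9 COBRA loci came from 4 assembled genes, the 20 fasciclin-like loci from 15 and the 44 synthase loci from 9. The numbers come from the labels, which name no shared day or batch, and what the libraries numbered 2 have in common was not tested. Without these 3 libraries, 13 members fell in the A4-labelled libraries and not 24, and 3 fell in A9 and not 6.

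**Figure D5:**
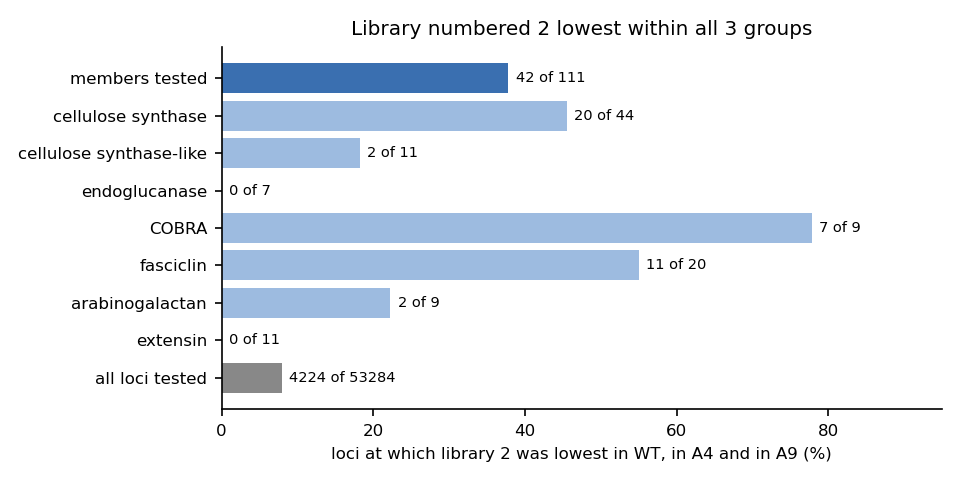
Share of tested loci (horizontal axis, percent) at which the library numbered 2 had the lowest FPKM within each of the 3 groups, for all tested members, for each role and for all tested loci; the text at each bar gives the number of loci. The bars for COBRA, fasciclin and cellulose synthase loci reach 77.8%, 55% and 45.5% against 7.93% for all loci.

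Other genes of cellulose and wall protein making were counted from word lists, beside 32.1% of all tested loci called in the A4-labelled libraries and 19.2% in A9. Sucrose synthases and the enzymes that make UDP-glucose, the substrate of cellulose, did not pass limma against wild type at any of 35 tested loci in either line, with 1 and 0 at an unadjusted p under 0.05, and between the lines 1 was higher in the A4-labelled libraries. Their median changes on the log2(FPKM + 1) scale were 0.04 in the A4-labelled libraries and -0.02 in A9. Tubulins and kinesins of the microtubules were called at many of their 235 loci in both directions, 53 higher and 47 lower in the A4-labelled libraries and 26 and 33 in A9, or 42.6% and 25.1% called, with medians of 0.01 and -0.01. The tubulin alpha-3 locus XLOC_075979 was at 123 ± 41.5 FPKM in wild type; it rose to 564 ± 32.9 in the A4-labelled libraries and 400.0 ± 144 in A9 (SD, n = 3), by 2.25 (SE 0.29, adjusted p = 0.000591) and 1.70 (SE 0.29, adjusted p = 0.00447). Prolyl 4-hydroxylases, which make the hydroxyproline of extensins and arabinogalactan proteins, fell at 5 of 26 loci and rose at 0 in the A4-labelled libraries by limma, also at an unadjusted p under 0.05, and rose at 1 and fell at 1 in A9, or 19.2% and 7.69% called, with medians of -0.18 and 0.03. Arabinosyl- and galactosyltransferases rose at 4 and fell at 6 of 45 loci in the A4-labelled libraries, and rose at 6 and fell at 1 in A9, or 22.2% and 15.6% called, with medians of -0.10 and 0.09. These shares, like those of the hydroxylases, lie below those over all loci, and the falls of the hydroxylases in the A4-labelled libraries are near the 16.6% of all loci. Peroxidases, some named so by a chance word, rose at 7 and fell at 7 of 26 loci in the A4-labelled libraries and rose at 6 and fell at 5 in A9, or 53.8% and 42.3% called, with medians of -0.02 and 0.02.

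Markers of other tissues moved beside these results, and their part in them was not tested. Laccases and xylem proteins, markers of lignifying vessels, summed to between 42.6 and 48.5 FPKM in wild type, 38.8 and 55.2 in the A4-labelled libraries and 47.6 and 99.6 in A9, and in each group the library numbered 2 was the lowest. Of their 16 tested loci, 5 rose and 3 fell in the A4-labelled libraries, 3 rose and 1 fell in A9, and 0 were higher and 4 lower in the A4-labelled libraries than in A9. Chlorophyll-binding and Rubisco small subunit loci summed to between 991 and 1267 FPKM in wild type, 566 and 929.8 in the A4-labelled libraries and 501 and 798 in A9, with 21 of 52 loci lower in each line, 3 higher in the A4-labelled libraries and 0 higher in A9. Pollen and anther loci summed to between 163 and 226 FPKM in wild type, 129 and 152 in the A4-labelled libraries and 155 and 183 in A9; of 21 tested loci, 3 rose and 8 fell in the A4-labelled libraries, and 7 rose and 8 fell in A9. The called shares in the A4-labelled libraries and in A9 were 50% and 25% for the xylem list, 46.2% and 40.4% for the green tissue list and 52.4% and 71.4% for the pollen list. None of these tested or untested marker loci was at 0 in all 9 libraries.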

How the data were processed

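The authors deposited FPKM values for 9 corolla libraries, per the file headers, and a table of the best tomato protein of each locus with its percent identity, bit score, e-value and description. Bit scores in that deposited table are BLAST scores and were not used. FastQC 0.11.2 and Bowtie2 2.2.6 were used per the submitters' processing notes; their roles, the assembler and the FPKM program are not stated there. No column of another sample was present. Loci averaging 1 FPKM or more over the 9 libraries were tested on the log2(FPKM + 1) scale by limma (version 3.58.1, R 4.3.3), fitting a mean per group with a variance prior that follows expression, and p-values were adjusted by Benjamini-Hochberg over all 53284 loci. The procedure was tested on simulated data. Depth was estimated from the steps of low FPKM values, of which 100% lay within 0.1 of whole fragments; the values are not counts, so no count model was used, and the fragments given cover counting error only.

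The members, the word lists and the tests were chosen with earlier results of these data known. Named loci were, in each role, the 3 with the highest mean and the lowest p in each comparison; the 8 largest rises and falls of each line against wild type; and the 5 largest each way between the lines. The last 2 kinds needed a call, a mean of at least 5 FPKM and no overlap between libraries, with 1 locus per assembled gene; not all of the 40 are printed. Groups and replicate numbers come from the sample titles. The deviations from the group mean of libraries with the same number correlated across loci at 0.248, 0.344 and 0.104 for wild type with A9 and at 0.240, 0.261 and 0.249 for A4 with A9, all above 0.1, so these were taken as paired from this check alone. For wild type with A4 they were 0.229, 0.192 and -0.125, and those were not. Alternatives were another pseudocount, filter, scaling, variance prior or sample set, the replicate block, sums per tomato protein, and each library left out.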

Additional observations from a re-analysis of the deposited data

How the results depend on the processing

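No called change of the 40 named loci turned its sign under any setting, but the balance of calls in the libraries labelled A4 did, from 22 higher and 24 lower members to 47 and 27 without the filter on low values and to 16 and 9 tomato proteins when summed. Calls over all loci without the filter are not given. Of the loci below it, 35 of 84 members and 25.1% of all loci lay above every wild-type library in the libraries labelled A4. The shift is therefore not read as a trait of the members. Without the filter on low values, the members called were 74 in the libraries labelled A4 against wild type (47 higher), 61 in A9 (50 higher, 11 lower), and 28 were higher in A4 than in A9; with a mean of at least 5 FPKM they were 27 (9 higher), 20 (18 higher, 2 lower) and 30 (4 higher). Summed per tomato protein, with 46 proteins tested, calls were 25 (9 lower), 22 (18 higher) and 25 (14 lower). Over all 14288 proteins tested, 2978 were higher and 2821 lower in A4, and 1885 and 1925 in A9. Between the lines, 2023 of all proteins were higher and 1620 lower in A4. For the other settings here no share over all loci is given, so their counts describe stability only. Summed per assembled gene, with 59 tested, the falls in A4 were 13, and between the lines 31 were called, 17 lower. These sums and leaving out the libraries numbered 2 were chosen after seeing the data; the latter gave 13 falls in A4 and 3 in A9. Fitting only A4 and A9 left 22 lower members. The causes were not tested, beyond the smaller number of loci or samples in these fits. With the replicate block the called members were 55, 52 and 64, and it changed the call of 9 named loci in the paired comparisons, most of them given beside their results. Leaving out 1 library at a time gave 22 to 48 calls in A4 (16 to 23 higher, 5 to 26 lower), 20 to 43 in A9 (15 to 36 higher, 5 to 7 lower) and 25 to 60 between the lines (12 to 16 higher, 13 to 44 lower). Depth limits loci near the filter, and the FPKM of loci shorter than the 274 to 290 bases subtracted in the depth estimate is uncertain.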
